A study of Mus musculus with 407 samples.

Results

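The genes described are 8 members of the dystrophin glycoprotein complex, chosen by symbol from the 24458 gene symbols of the count tables: Dmd, Utrn, Dag1, Sgca, Sgcb, Sgcd, Sntb1 and Dtna. All 8 were present in every table and all 8 passed the low-count filter in every fit. They were read in 407 RNA-seq libraries of C57BL/6J mice, male and female, from 4 muscles (tibialis anterior, soleus, gastrocnemius and diaphragm). Mice had reached 6 or 12 months, 18 or 21 months, or 24 or 27 months of age, which made 48 groups of 6 to 10 libraries. The labels give this inbred strain for all groups and name no allele or treatment, so the youngest mice, at 6 months, were the reference for age. Mice were bought at various ages, and muscles of 1 age were collected on 1 day, so age and collection day cannot be told apart. Each library was whole muscle RNA, in which fewer cells of a type and less RNA per cell cannot be told apart. Which muscles were taken from 1 mouse is not in the labels.

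The complex spans the muscle cell membrane. Dystrophin (Dmd) binds actin inside the fibre and the transmembrane part of dystroglycan (Dag1), whose other subunit binds laminin in the matrix, so that force passes sideways out of the fibre. Sarcoglycans alpha, beta and delta (Sgca, Sgcb, Sgcd) form a subcomplex in the membrane beside dystroglycan, dystrobrevin alpha (Dtna) binds dystrophin, and syntrophin beta 1 (Sntb1) is an adaptor bound to dystrophin and dystrobrevin. Utrophin (Utrn) is the close relative of dystrophin that is concentrated at the neuromuscular junction of adult fibres. Loss of dystrophin or of a sarcoglycan causes muscular dystrophy, in which the diaphragm of the mouse is severely affected.

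Libraries held 38583802 to 300089909 counts (median 72766895). Member counts were high, with medians per library of 40204 for Dmd and 9517 for Utrn, except for Sntb1 with a median of 204 and a lowest count of 13. Levels are given as CPM, counts scaled to a common library size, with sizes corrected by trimmed means of log ratios between libraries (TMM). Markers of hindlimb (Tbx4, Pitx1, Hoxc10) summed to at most 2.20 CPM in diaphragm libraries and to at least 15.8 CPM in limb libraries, and slow fibre markers had medians of 16100 CPM in soleus against 60.6 CPM in tibialis anterior. 9 libraries stood apart from the others of their muscle and sex and were run with and without: 8 of diaphragm and 1 of soleus. 6 of the diaphragm libraries had lost GC-rich transcripts, with Ckm at 16.1 to 320 CPM, and 1 of these and 1 other diaphragm library carried the liver transcript Alb, at 10100 and 26600 CPM.

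RefSeq promoter windows of GRCm38.p6 were held for 6 of the 8 members, in 8 windows. The 250 bases before the start are shown for Dmd, which changed with age in the tibialis anterior, for Sgcd, whose group means followed Dmd most closely among the members, and for Sgca, which differed most between diaphragm and limb. Capitals mark matches to the E-box CANNTG, the motif bound by myogenic regulators, or to MCAT, the motif of TEAD factors, which reads CATTCC on one strand and therefore GGAATG on the other. Both strands were searched, and matches may overlap.
Dmd chrX:82948620-82948869, plus strand: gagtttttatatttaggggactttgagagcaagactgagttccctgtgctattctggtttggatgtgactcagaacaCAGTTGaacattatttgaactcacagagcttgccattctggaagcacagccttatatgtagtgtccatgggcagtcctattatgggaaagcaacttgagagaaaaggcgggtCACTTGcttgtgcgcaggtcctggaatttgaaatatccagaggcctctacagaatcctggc
Sgcd chr11:47379326-47379575, minus strand: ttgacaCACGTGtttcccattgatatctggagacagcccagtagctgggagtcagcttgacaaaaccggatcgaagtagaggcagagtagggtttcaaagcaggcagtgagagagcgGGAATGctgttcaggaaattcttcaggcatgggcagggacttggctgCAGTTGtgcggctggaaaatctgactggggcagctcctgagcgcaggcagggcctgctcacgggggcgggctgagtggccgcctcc
Sgca chr11:94976328-94976577, minus strand: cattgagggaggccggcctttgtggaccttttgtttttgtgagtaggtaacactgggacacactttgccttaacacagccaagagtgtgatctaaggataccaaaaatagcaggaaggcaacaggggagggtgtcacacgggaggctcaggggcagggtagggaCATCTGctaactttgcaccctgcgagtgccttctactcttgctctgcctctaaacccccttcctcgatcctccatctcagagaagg
The Dmd window held 2 E-boxes, that of Sgcd 2 E-boxes and 1 MCAT, and that of Sgca 1 E-box. Of all 32851 promoter windows, 66.2% held an E-box and 12.6% an MCAT, so an E-box is the usual case. A second Dmd window, at chrX:85048045-85048294, and the Sgcb window, at chr5:73647738-73647987, held none of either. The Utrn window, at chr10:12861736-12861985, both Dmd windows and the Sgcd window lay inside the annotated spans of their genes. That of Utrn held 7 E-boxes, where 3.84% of all windows held 4 or more. These matches describe letters and carry no information on binding.

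To compare members with each other, levels were divided by the length of the gene's merged exons (CPM per kb). At 6 months, Dag1 or Sgca stood highest in all 8 combinations of muscle and sex, with Dag1 at 42.4 to 63.7 and Sgca at 19.0 to 69.9 CPM per kb. Dmd had ranks 2 to 4, at 24.9 to 44.2 CPM per kb, and Sgcb was at 16.7 to 32.2. In male gastrocnemius, where Dmd had rank 4, Sgcb was at 28.5 ± 1.29 and Dmd at 26.2 ± 9.79 (SD, n = 8). These values lay within the spread of Dmd, and libraries of that muscle with low Dmd are described below. Utrn had ranks 5 to 7, at 8.26 to 12.9 CPM per kb. Sntb1 was lowest everywhere, at 0.411 to 1.85 CPM per kb. The order of neighbours was not fixed: in female tibialis anterior Dag1 and Sgca were at 57.9 ± 3.78 and 53.9 ± 2.77 CPM per kb (SD, n = 8), within their spread of each other, and in males of that muscle Sgca stood above Dag1, at 58.6 ± 3.39 and 51.5 ± 1.96. Lengths came from GENCODE M21 and not from the gene model the reads were counted with, and isoforms were not separated, so the short Dmd transcripts are counted with the long ones.

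**Figure D1:**
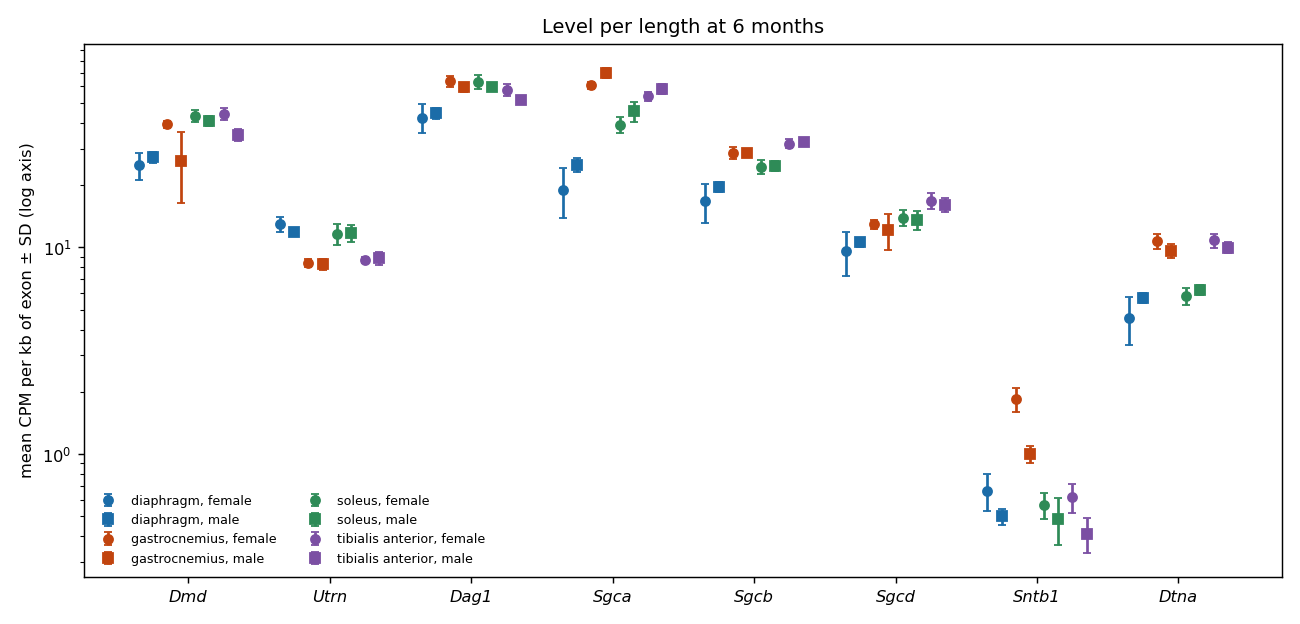
Mean level per length (CPM per kb of exon, log axis) of each member at 6 months, with bars for the SD, by muscle (colour) and sex (circle female, square male), without the libraries that stood apart. Dag1 or Sgca stands highest in each muscle and sex, with Sgca below Dmd in the diaphragm of both sexes and in female soleus, and Sntb1 stands lowest, at 0.411 to 1.85 CPM per kb.

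The first question of the design was how muscles differ. Averaged over the 6 ages, 90 of 96 tests (8 members, 6 pairs of muscles, 2 sexes) were called by edgeR's quasi-likelihood test at an adjusted p below 0.05. In females, 8 of 8 members were called between diaphragm and gastrocnemius (86.6% of all genes), diaphragm and soleus (83.5%) and diaphragm and tibialis anterior (88.4%), 7 between gastrocnemius and soleus (74.6%), 6 between gastrocnemius and tibialis anterior (57.5%) and 7 between soleus and tibialis anterior (75.7%). In males these counts were 8 (85.3%), 7 (80.4%), 8 (86.6%), 8 (73.0%), 8 (55.1%) and 7 (74.0%). Most genes differed between muscles, and the members' share is read against that. Muscle directions depend on what they are measured against. With libraries scaled by their totals in place of TMM, the median of all genes moved by 0.197 to 0.970 on the log2 scale, 32 of the 90 calls changed sign, and 51 of 84 calls were higher in the first muscle against 27 of 90. The directions given next as kept were called the same way under both scalings, and the others are relative to the trimmed mean of all genes in these libraries.

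Sgca, the alpha sarcoglycan of striated muscle, was lowest in the diaphragm under both scalings. Without the libraries apart, it ranged from 19.9 to 47.5 CPM (median 36.6) in female diaphragm, against 88.5 to 120 (median 106) in gastrocnemius, 59.4 to 84.5 (median 68.9) in soleus and 81.7 to 107 (median 96.3) in tibialis anterior. No female diaphragm library overlapped a limb library. In males the diaphragm ranged from 32.1 to 51.1 CPM (median 44.5) and limb libraries had at least 65.4 CPM once the soleus library that stood apart was set aside. The log2 difference from limb muscles was -1.05 to -1.66 with TMM, and with total counts the value nearest 0 was -0.65 in females, against soleus, and -0.48 in males, against tibialis anterior.

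Utrn was the member that stood higher in diaphragm than in both gastrocnemius and tibialis anterior under both scalings. Its medians without the libraries apart were 180 CPM in female and 170 CPM in male diaphragm, 155 and 153 in soleus, 120 and 119 in tibialis anterior and 115 and 113 in gastrocnemius. Female diaphragm libraries, at 142 to 210 CPM, lay above those of gastrocnemius (95.1 to 140) and tibialis anterior (93.1 to 136), and male ones, at 149 to 200 CPM, above 79.2 to 130 and 98.4 to 145 CPM, with no overlap. Soleus libraries, at 128 to 195 CPM in females and 129 to 200 CPM in males, overlapped those of the diaphragm. Diaphragm over gastrocnemius was 0.64 ± 0.03 (log2, SE) in females and 0.47 in males, and soleus over tibialis anterior 0.40 and 0.33, all kept under both scalings. The diaphragm and soleus, next to each other in this order, differed by 0.20 in females and by 0.01 (not called) in males. In males this difference was called without the libraries apart (0.14, adjusted p = 6.20e-09) and with total counts (0.50).

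Dmd was lower in diaphragm than in soleus (log2 -0.82 in females and -0.84 in males) and lower in gastrocnemius than in soleus (-0.21 and -0.50), under both scalings. Over all ages, it had medians of 725 CPM in female soleus, 811 in tibialis anterior, 633 in gastrocnemius and 396 in diaphragm. In males these medians were 655, 590, 523 and 393 CPM. The place of the tibialis anterior was not settled: soleus over tibialis anterior was -0.14 with TMM and 0.29 with total counts in females, and 0.12 and 0.62 in males. The lower level in diaphragm against gastrocnemius (-0.61 and -0.34) was not kept with total counts (0.03 and 0.39).

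Sntb1 was highest in the gastrocnemius with TMM, and higher there than in soleus and tibialis anterior under both scalings. Female gastrocnemius ranged from 4.10 to 11.6 CPM (median 7.23), against a median of 2.29 in soleus, 2.78 in tibialis anterior and 3.84 in diaphragm. Gastrocnemius over soleus was 1.63 in females and 1.03 in males, and over tibialis anterior 1.44 and 0.76, all kept under both scalings. Dtna was higher in gastrocnemius than in soleus (0.63 in females and 0.59 in males) and lower in soleus than in tibialis anterior (-0.77 in both), also kept. For Dag1, Sgcb and Sgcd the diaphragm was below every limb muscle with TMM (-0.33 to -0.91), but total counts reversed or removed each of these differences from gastrocnemius and tibialis anterior. Of the 12 pairs for Sgcb, 12 were called with TMM and 2 of these were called in the same direction with total counts.

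**Figure D2:**
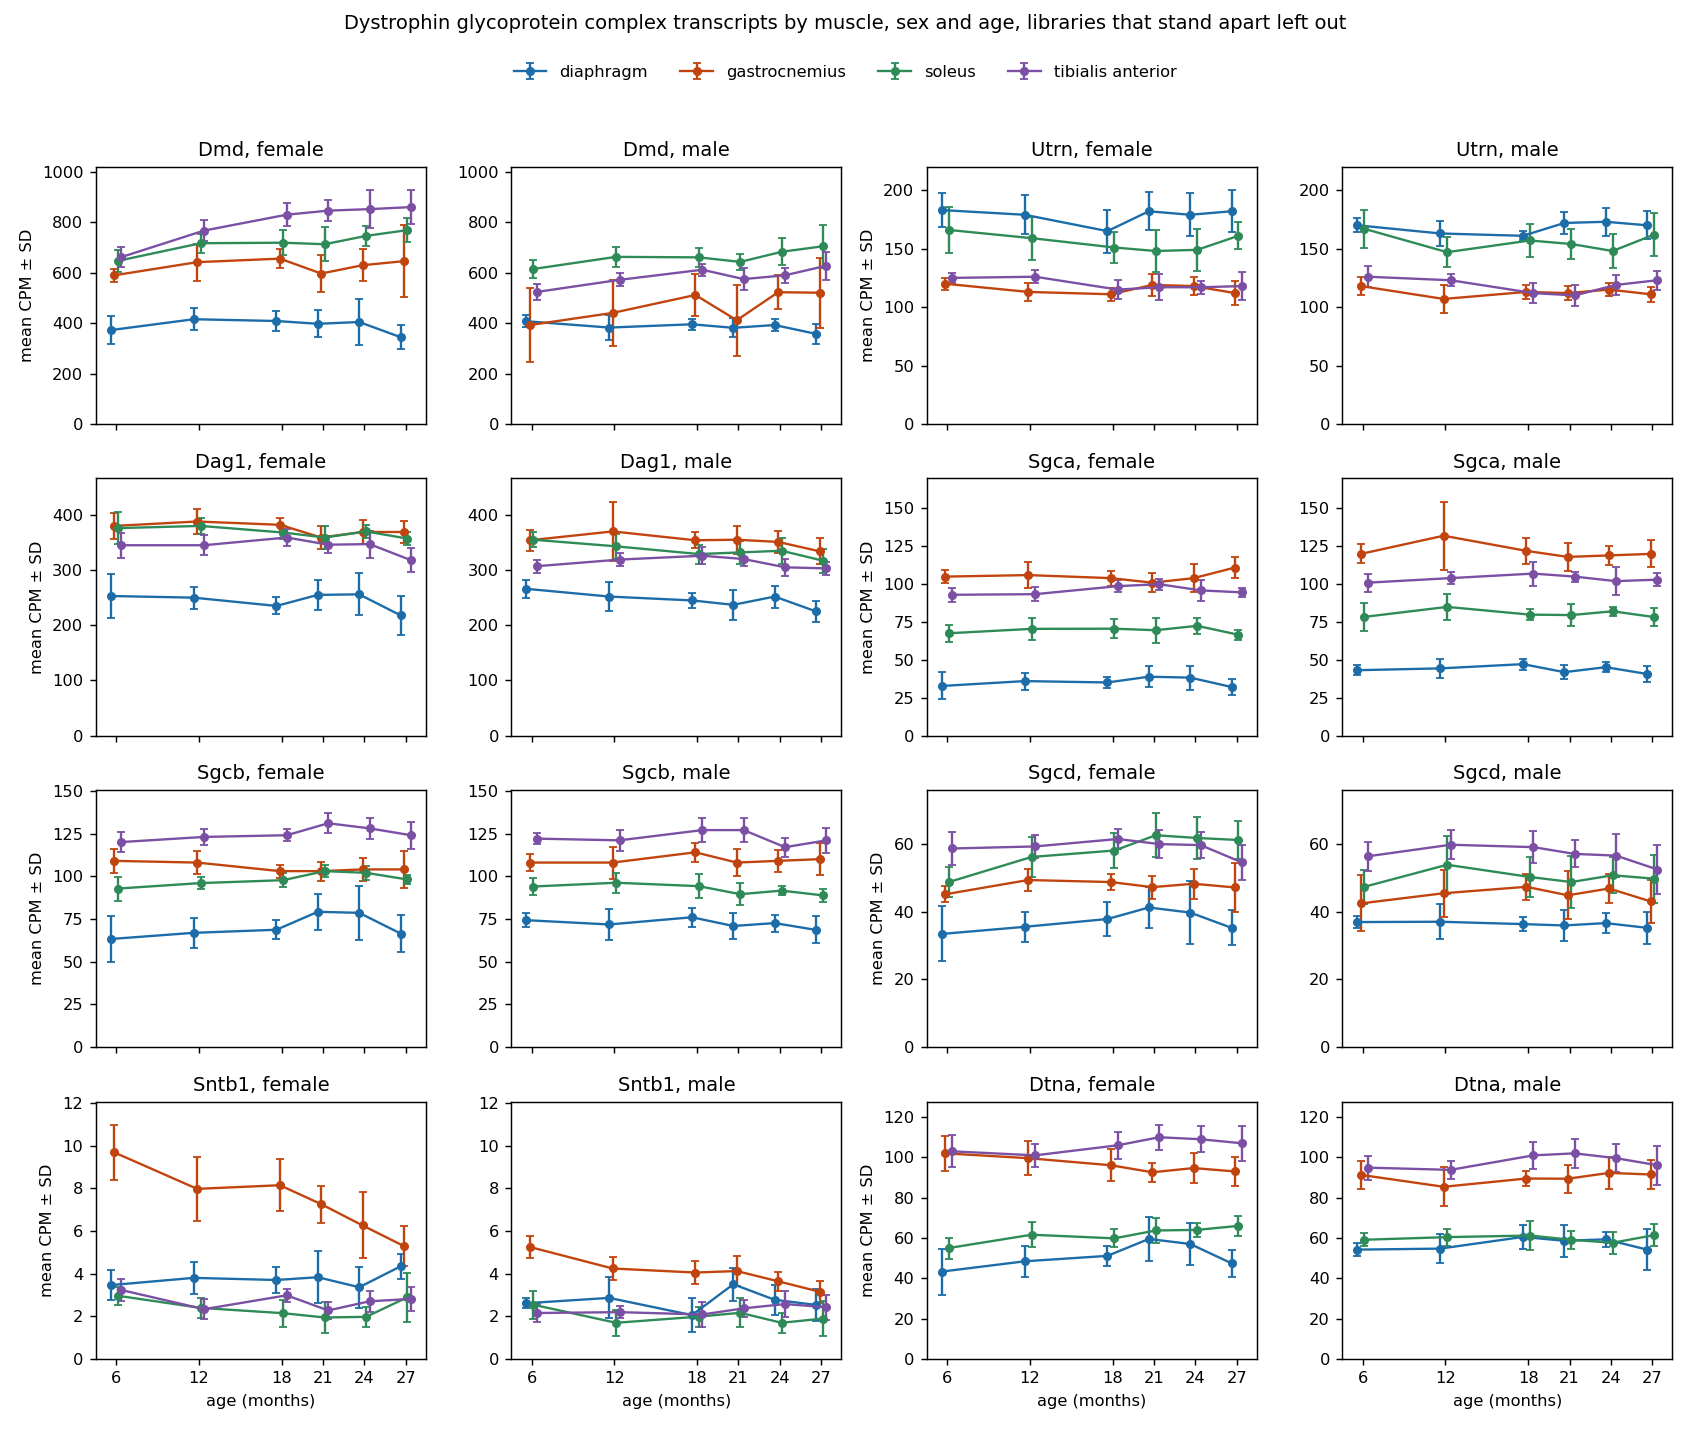
Mean CPM with bars for the SD of each member by age (months), for females and males, with 1 line per muscle and without the libraries that stood apart. Dmd in tibialis anterior climbs from 6 months, Sntb1 falls in gastrocnemius, and Sgca lies lowest in diaphragm, while the diaphragm levels of Dag1, Sgcb and Sgcd against gastrocnemius and tibialis anterior change direction or lose their call with total-count scaling.

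Muscle tissue differed in makeup as well. The summed level of fibre markers (Acta1, Ckm, Des, Ttn, Mb) had medians of 74400 CPM in diaphragm, 177000 in soleus, 218000 in tibialis anterior and 234000 in gastrocnemius. Fibroblast markers (Pdgfra, Dcn, Col1a1, Col3a1, Lum) had medians of 1260 CPM in diaphragm against 607 to 845 in limb muscles, and macrophage markers 141 against 32.5 to 56.8. Their part in the member levels was not tested.

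The ratio of Utrn to Dmd per length does not depend on library scaling. Group medians were 0.418 to 0.539 in diaphragm, 0.211 to 0.287 in soleus, 0.176 to 0.302 in gastrocnemius and 0.142 to 0.245 in tibialis anterior. Every diaphragm group median thus lay above every limb group median. In females, diaphragm libraries started at 0.346 and tibialis anterior libraries ended at 0.226, and at 27 months the lowest diaphragm library was at 0.489. Female gastrocnemius libraries ended at 0.326. In males, diaphragm libraries started at 0.363, and some gastrocnemius libraries overlapped them, reaching 0.725 at 6 months and 0.55 at 27 months. The part of library GC in the ratio was not tested. Female tibialis anterior had a ratio of 0.176 to 0.226 at 6 months (median 0.200) and of 0.106 to 0.168 at 27 months (median 0.150), with no overlap. In males of that muscle the ranges were 0.232 to 0.324 (median 0.245) and 0.189 to 0.231 (median 0.204). These ratios are descriptions, with no test.

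The main question was age. At 27 against 6 months, 9 of 64 tests were called, 5 higher and 4 lower, of which 8 were in limb muscles. By muscle these counts were 2 of 8 in female gastrocnemius (29.3% of all genes called), 3 of 8 in female soleus (18.8%), 1 of 8 in female tibialis anterior (21.9%), 0 of 8 in female diaphragm (1.61%), 1 of 8 in male gastrocnemius (23.3%), 0 of 8 in male soleus (2.85%), 1 of 8 in male tibialis anterior (17.8%) and 1 of 8 in male diaphragm (8.65%). These shares are near the background, and the median change of the 8 members lay between -0.12 and 0.03 in the 8 fits, beside -0.03 to 0.03 for all genes. In female diaphragm edgeR called 0 of 8 members, with 0 at an unadjusted p under 0.05 and 0 by DESeq2 and by limma-voom, and in male soleus it called 0, with 2 at an unadjusted p under 0.05, 1 by DESeq2 and 0 by limma-voom. DESeq2 and limma-voom gave totals of 10 and 7 calls in place of 9.

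Dmd rose in the tibialis anterior of both sexes. Female libraries ranged from 573 to 713 CPM (median 667) at 6 months and from 741 to 969 CPM (median 840) at 27 months, with no overlap. The change was 1.32-fold (log2 0.40 ± 0.04, SE, n = 8 and 10, edgeR adjusted p = 2.20e-09), with 10 of 10 older libraries above the 6-month mean. Most of it was there early: group means were 661 ± 41.1 CPM at 6 months, 766 ± 41.9 at 12, 829 ± 45.1 at 18 and 859 ± 66.9 at 27 months (SD). Male libraries went from 466 to 572 CPM (median 526) to 557 to 750 CPM (median 623), 1.21-fold (log2 0.28 ± 0.04, edgeR adjusted p = 1.03e-05), and overlapped at the edge. Both calls held under all 10 alternatives, total-count scaling included (0.46 in females). Leaving out the libraries apart changed nothing here, since none were of tibialis anterior.

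In the soleus, Dmd rose in females from 585 to 724 CPM (median 641) to 660 to 808 CPM (median 789), 1.18-fold (log2 0.24 ± 0.05, edgeR adjusted p = 0.000262). Male soleus had 561 to 655 CPM (median 622) at 6 months and 611 to 896 CPM (median 685) at 27 months, a difference of 0.20 ± 0.06 that was not called (adjusted p = 0.0561) and was called without the library apart (0.19, adjusted p = 0.0264). The female groups overlapped only from 660 to 724 CPM. In female soleus, Sgcd also rose, from 40.3 to 54.6 CPM (median 48.6) to 53.8 to 69.8 CPM (median 60.2), 24.5% higher (log2 0.32 ± 0.06, edgeR adjusted p = 0.000286). Dtna rose there from 50.0 to 63.8 CPM (median 53.0) to 60.0 to 74.5 CPM (median 65.5), 1.19-fold (log2 0.25 ± 0.06, edgeR adjusted p = 0.001). With total-count scaling, which moved the median of all genes in female soleus by -0.190, Dmd (0.05) and Dtna (0.07) were no longer called and Sgcd (0.13) was. Summed fibre markers rose in the same libraries from a median of 147000 to 197000 CPM and fibroblast markers fell from 1450 to 765 CPM, 5 of 5 of them called lower, and their part in these changes was not tested.

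Sntb1 fell in the gastrocnemius of both sexes, the largest change of the 8 members in limb muscle at 27 months. Female libraries ranged from 8.41 to 11.6 CPM (median 9.12) at 6 months and from 4.22 to 6.89 CPM (median 5.15) at 27 months. Male libraries ranged from 4.43 to 5.94 CPM (median 5.06) and from 2.53 to 4.19 CPM (median 3.04). Neither pair overlapped. Sntb1 fell by 45.1% in females (log2 -0.86 ± 0.12, n = 8 and 10, edgeR adjusted p = 1.01e-07) and by 39.5% in males (log2 -0.73 ± 0.10, edgeR adjusted p = 1.24e-07). Both calls held under all 10 alternatives, of which leaving out the libraries apart changed nothing, since none were of gastrocnemius. Fast fibre markers were called lower for 5 of 7 genes and slow fibre markers higher for 6 of 6 in the same female comparison, and for 5 of 7 and 4 of 6 in the male one, and their part was not tested.

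Dtna in female gastrocnemius fell from a median of 104 to 94.2 CPM (log2 -0.12 ± 0.05, edgeR adjusted p = 0.0491). This call was lost under 6 of 10 alternatives. Dmd in female gastrocnemius had 552 to 622 CPM (median 585) at 6 months and 325 to 799 CPM (median 678) at 27 months and was not called (0.14, adjusted p = 0.263). In males the same comparison gave 157 to 527 CPM (median 426) and 206 to 708 CPM (median 516), also not called (0.41 ± 0.21, adjusted p = 0.15).

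The wide male range came with a property of the libraries. Of 52 male gastrocnemius libraries, 6 had at most 243 CPM of Dmd and the other 46 at least 318 CPM. The 6 had GC slopes (the log2 excess of a library over the median of its muscle and sex, per 10 percentage points of gene GC) of 0.12 to 0.59. No other library of male gastrocnemius exceeded 0.04. Across libraries of 1 sex, Dmd and the slope had r = -0.74 in males and -0.69 in females (n = 52 each), as a description of points that share a muscle and a scaling. With the slope as a covariate, Dmd was called higher at 27 months in male (0.47, adjusted p = 0.00779) and female (0.33, adjusted p = 3.28e-05) gastrocnemius. Members called went from 9 to 15, and the share of all genes called with this covariate is not given here.

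In the diaphragm the call for Dmd rested on the libraries apart. Male diaphragm had 385 to 933 CPM (median 406) at 6 months and 313 to 470 CPM (median 350) at 27 months, called lower (log2 -0.40 ± 0.12, edgeR adjusted p = 0.0352). The library at 933 CPM was one that had lost GC-rich transcripts. Without the libraries apart the difference was -0.22 (adjusted p = 0.0515), and Dag1 was called lower in male diaphragm instead (-0.27, adjusted p = 0.0122) as well as in male soleus (-0.17, adjusted p = 0.0189). In the 6 libraries with GC slopes of -0.705 and below, Sgca, whose exons hold 56.7% GC, was at 0.813 to 16.6 CPM, Dag1 (52.8%) at 60.3 to 157 CPM, and Dmd (41.5%) at 470 to 933 CPM. Utrn (47.9%) was at 173 to 236 CPM there, against 142 to 210 CPM in the female diaphragm libraries that did not stand apart. The part of GC loss in these levels was not tested.

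**Figure D3:**
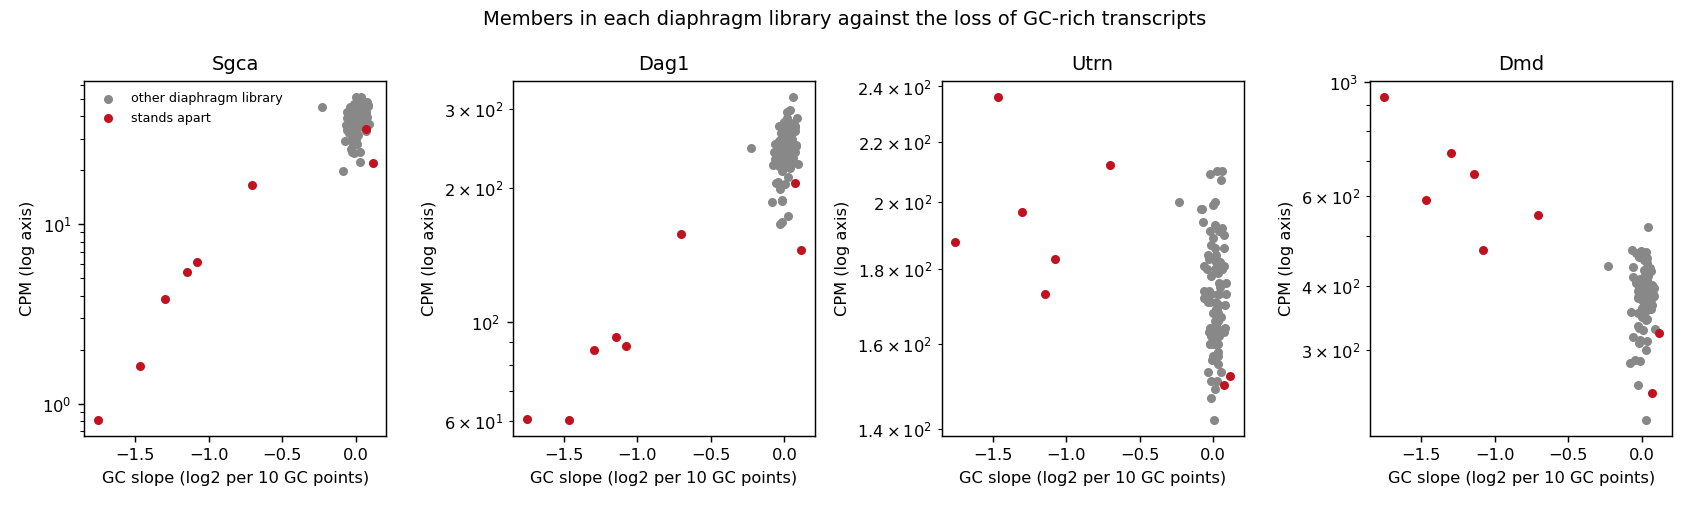
CPM (log axis) of Sgca, Dag1, Utrn and Dmd in each diaphragm library against its GC slope (log2 per 10 percentage points of GC), with libraries that stood apart in red. The 6 libraries with slopes of -0.705 and below hold 0.813 to 16.6 CPM of Sgca, under all others, and 470 to 933 CPM of Dmd, where the libraries that did not stand apart reach 522.

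Utrn, Sgca and Sgcb were called by edgeR in 0 of 8 comparisons each at 27 months, as by DESeq2 and limma-voom, with 0, 1 and 2 comparisons at an unadjusted p under 0.05. Utrn differed by -0.09 to 0.01 with standard errors of 0.05 to 0.08, Sgca in limb muscles by -0.03 to 0.09 and Sgcb in limb muscles by -0.08 to 0.07. In diaphragm, standard errors of up to 0.32 for Sgca and 0.12 for Sgcb left larger changes undetectable. With the study's fold limit of 1.5 and a Benjamini-Hochberg adjusted p under 0.05, where the study adjusted by Bonferroni, 4 of 64 gene and tissue pairs were called over the 5 older ages, all of Sntb1: both gastrocnemius groups (9.44% of all genes called in females and 8.06% in males), female soleus at 21 and 24 months (-0.63 and -0.60, adjusted p = 0.0263 and 0.0274, where 8.52% of genes were called) and male diaphragm at 21 months (1.49, adjusted p = 0.00876, 11% of genes). The last rested on the library with 24.3 CPM of Sntb1 and 26600 CPM of Alb, and was 0.42 (adjusted p = 0.249) without the libraries apart. With Bonferroni adjustment in edgeR, 2 of the 4 were called, Sntb1 in female and male gastrocnemius (adjusted p = 2.16e-05 and 1.83e-05 at 27 months). Sntb1 in female soleus was at 2.48 to 3.63 CPM (median 2.80) at 6 months, 0.655 to 3.01 (median 2.09) at 21 months and 1.51 to 5.39 (median 2.60) at 27 months, where it was not called (-0.04).

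**Figure D4:**
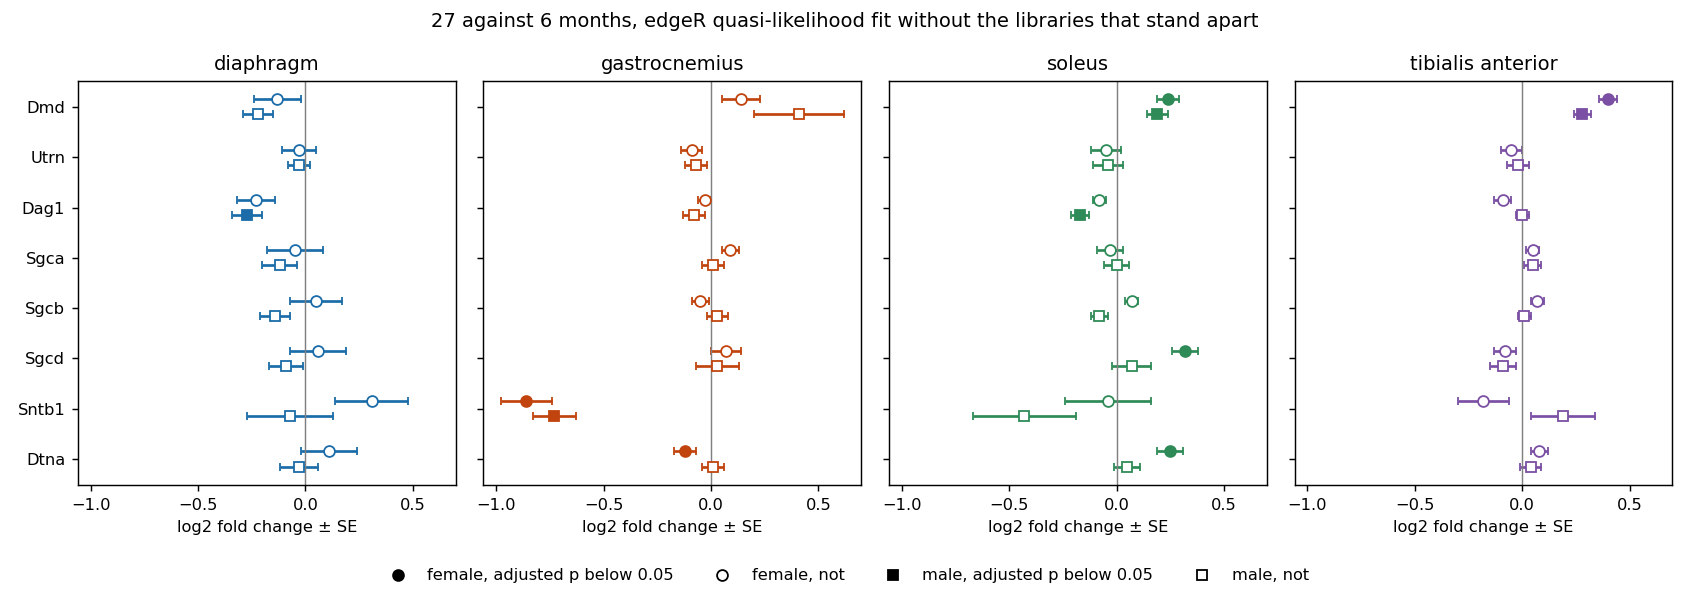
Log2 fold change at 27 against 6 months with bars for the SE, for each member by muscle and sex (circle female, square male; filled where the adjusted p is below 0.05), in the edgeR fit without the libraries apart. Dmd stands at 0.40 and 0.28 in tibialis anterior and Sntb1 at -0.86 and -0.73 in gastrocnemius, and most other points lie within 0.2 of 0.

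The other ages show when members moved. In female tibialis anterior, Dmd was called from 12 months on (0.21, the only member, where 0.527% of all genes were called) and at 18 months (0.32, 4.53%), 21 months (0.36, with 4 of 8 members, 10.7%) and 24 months (0.37, with 2 of 8, 16.3%). In male tibialis anterior it was called at 18 (0.22, 1.93%) and 24 months (0.18, 15.4%), but at 12 months no member (0.338%) and at 21 months only Utrn was (-0.20, 6.78%). Sntb1 in female gastrocnemius was called at 21 (-0.40, 15.8%) and 24 months (-0.62, 19.2%), where no member was at 12 (0.579%) and 18 months (9.6%).

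In male gastrocnemius Sntb1 was the only member called at 18 (-0.36, 2.99%), 21 (-0.34, 10.2%) and 24 months (-0.52, 14.6%), with none at 12 months (1.08%). In female soleus Sgcd was called at 18 months (0.24, 5.68%), and 4 members were at 21 months (22.7%) and 5 at 24 months (23.3%), with Sgcd at 0.34 and 0.33, Dtna at 0.19 and 0.20 and Sgcb at 0.14 and 0.12. At 12 months 0.221% of genes and no member were called there. Members were called in male soleus at none of 12 (0.117%), 18 (0.489%), 21 (1.37%) and 24 months (4.46%). In female diaphragm none were called at 12 (0%), 18 (0.222%), 21 (1.53%) and 24 months (3.33%), although Dtna was called higher at 21 months without the libraries apart (0.45, adjusted p = 0.0422, 4.6% of genes). In male diaphragm 2 were at 21 months (10.7%) and none at 12 (0.0622%), 18 (0.199%) and 24 months (1.27%). The call of Dmd in male diaphragm at 21 months (-0.40) had an adjusted p of 0.477 without the libraries apart.

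A line fitted over all 6 ages called 14 of 64, 8 rising and 6 falling. The background was 36.3% of all genes in female and 30.6% in male gastrocnemius, 29.4% and 5.78% in soleus, 29.7% and 22.8% in tibialis anterior and 5.86% and 8.92% in diaphragm. Female soleus gave 5 of 8 members, with Dmd at 0.11, Sgcb at 0.06, Sgcd at 0.18 and Dtna at 0.12 rising and Dag1 at -0.05 falling, in log2 units per 12 months. With total counts Dmd and Dtna there had slopes of -0.01 and 0.01, and Sgcb changed direction (-0.06). Female tibialis anterior gave 3 of 8, with Dmd at 0.22, Sgcb at 0.05 and Dtna at 0.06. Dmd in male tibialis anterior rose by 0.13 per 12 months, and Sntb1 in gastrocnemius had slopes of -0.44 in females and -0.35 in males. Dag1 in male soleus (-0.09) and Dmd in male diaphragm (-0.18, and -0.08 with adjusted p = 0.135 without the libraries apart) were the remaining calls beside Dtna in female gastrocnemius (-0.07).

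Whether an age change differed between muscles was tested directly, and 7 of 96 tests were called, where 0% to 7.57% of all genes were. In females, the change of Dmd at 27 months was lower in diaphragm than in tibialis anterior (-0.56, adjusted p = 0.0043, 4.32% of genes called) and than in soleus (-0.43, adjusted p = 0.041, 5.07%). In males it was lower in diaphragm than in gastrocnemius (-0.77, adjusted p = 0.00542, 3.44%). These 3 remained called without the libraries apart, at -0.50, -0.36 and -0.62, but that between female diaphragm and soleus was not called by limma-voom (-0.41, adjusted p = 0.0557) or with the replicate block (-0.40, adjusted p = 0.0953), nor that in males with a term for the run of sample numbers (-0.58, adjusted p = 0.157). For Sntb1 in females, the change in diaphragm was above that in gastrocnemius (1.23, adjusted p = 0.000101, 3.2%), and that in gastrocnemius below that in soleus (-0.83, adjusted p = 0.0155, 5.51%). The change of Dtna was also lower in female gastrocnemius than in soleus (-0.38, adjusted p = 0.0372), and that of Sgcd higher in female soleus than in tibialis anterior (0.43, adjusted p = 0.0156, 7.57%). With the replicate block that of Dtna was not called (-0.37, adjusted p = 0.0573), and with total counts those of Dtna (-0.07), Sgcd (0.15) and Sntb1 between gastrocnemius and soleus (-0.51) were not called. Between female gastrocnemius and tibialis anterior 0.57% of genes and no member were called.

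The sexes were compared next. Averaged over ages, 19 of 32 tests were called, 4 higher and 15 lower in males. The background was 58.3% of all genes in gastrocnemius, 47.8% in tibialis anterior, 30.9% in soleus and 18.9% in diaphragm. Dmd was lower in males in tibialis anterior (log2 -0.45 ± 0.02, SE, edgeR adjusted p = 3.26e-40), gastrocnemius (-0.45 ± 0.07, adjusted p = 1.11e-08) and soleus (-0.13 ± 0.02). In gastrocnemius the medians over all ages were 633 CPM in females and 523 CPM in males, where the 6 libraries of at most 243 CPM are included. With the GC slope as a covariate the difference was -0.44 ± 0.04 (edgeR adjusted p = 2.92e-15). Slopes were measured within each sex, so this covariate cannot take up a difference in library GC between the sexes. At 27 months the tibialis anterior had 557 to 750 CPM in males and 741 to 969 CPM in females.

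Sntb1 was lower in males in all 3 limb muscles, with log2 differences of -0.87 ± 0.05 in gastrocnemius (edgeR adjusted p = 2.18e-32), -0.26 in soleus and -0.24 in tibialis anterior. At 6 months the gastrocnemius had 4.43 to 5.94 CPM in males and 8.41 to 11.6 CPM in females, with no overlap. Sgca went the other way, higher in males by 0.20 in gastrocnemius and soleus and by 0.11 in tibialis anterior. In diaphragm Sgca was 0.32 higher with an adjusted p of 0.0799, and 0.30 higher with an adjusted p of 3.87e-07 without the libraries apart. Leaving these out, diaphragm calls went from 1 to 4 of 8 (35.6% of all genes called), with Sntb1 from -0.30 to -0.48 (adjusted p = 1.53e-06) and Dtna from 0.11 to 0.16 (adjusted p = 0.00477), the latter opposite in sign to limb muscle. Dag1 was lower in males in the 3 limb muscles (-0.10 to -0.15), Sgcd in gastrocnemius and soleus (-0.10 and -0.23), Dtna in gastrocnemius and tibialis anterior (-0.11 each) and Sgcb in soleus (-0.10), with Sgcb 0.05 higher in gastrocnemius. Utrn was lower in male diaphragm (-0.11) and was not called in limb muscle. None of the 19 calls changed sign with total counts, but Sgcb in gastrocnemius was then at 0.00 and not called (edgeR adjusted p = 0.816). Slow fibre markers had medians of 1610 CPM in female and 727 CPM in male gastrocnemius, and their part in the sex differences was not tested.

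**Figure D5:**
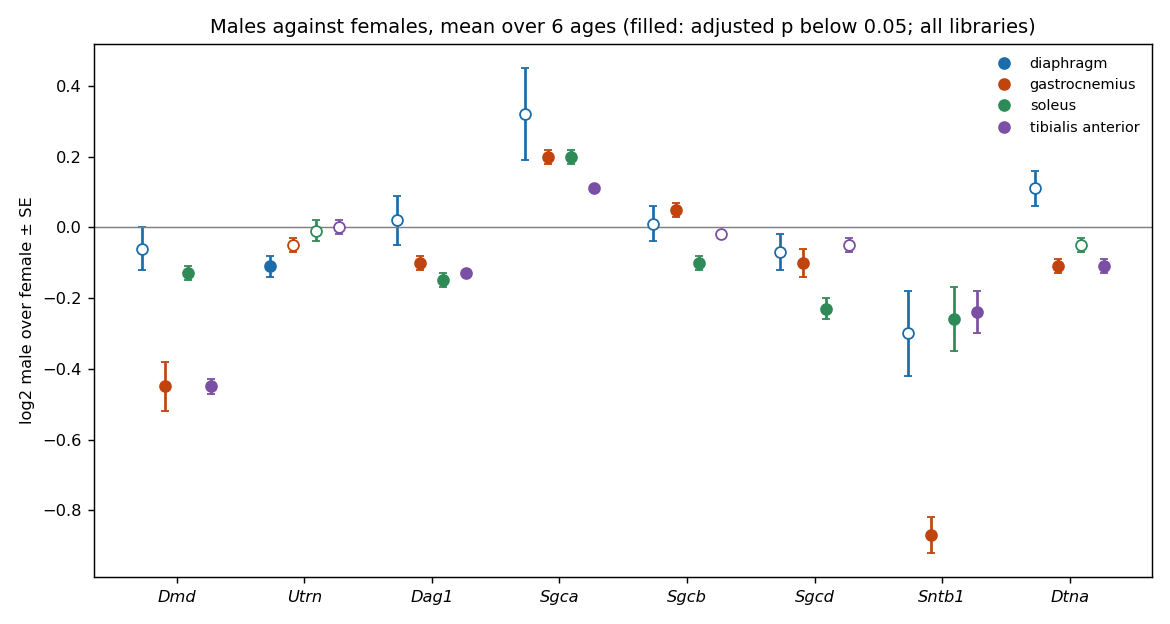
Log2 difference of males over females, averaged over 6 ages, with bars for the SE, for each member by muscle (colour), with all libraries and filled where the adjusted p is below 0.05. Sgca lies above 0 and Sntb1 below 0 in every muscle, with Sntb1 in gastrocnemius at -0.87.

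No difference in the age change between sexes was called in 32 tests by edgeR, DESeq2 or limma-voom (0% to 1.73% of all genes were called by edgeR), and 5 of the 32 had an unadjusted p under 0.05.

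Across the 48 group means with TMM, the members other than Utrn and Sntb1 had positive r with each other, from 0.48 (Dmd and Dtna) to 0.91. Dmd and Sgcd had r = 0.88, and Sgca, Sgcb and Dtna had r = 0.85 to 0.91 with each other, whereas Utrn had r = -0.91 with Sgca and -0.94 with Dtna and Sntb1 had r of at most 0.28 with any member. Within groups, Dmd and Sgcd had r = 0.81 in diaphragm (n = 90), 0.78 in gastrocnemius (n = 104), 0.11 in soleus (n = 102) and 0.16 in tibialis anterior (n = 102). In female and male gastrocnemius the GC slope had r = -0.69 and -0.74 with Dmd, and -0.67 and -0.70 with Sgcd. In diaphragm these values were 0.19 and -0.17 with Dmd, and 0.47 and 0.20 with Sgcd. The part of library GC in this pair was not tested. All these values are descriptions, since the points share muscles and scaling. Among 17580 genes, the 3 closest to Dmd over the group means were Mbnl2 (r = 0.94), Mlip (0.93) and Dars (0.92), and those closest to Utrn were Casp6 (0.98), Fam208a (0.98) and Hdgfrp3 (0.97). Dag1 was followed most closely by Col22a1 (0.97), N6amt2 (0.95) and Pcyox1 (0.95), Sgca by Mtfr1l, Ppm1j and Mypn (0.99 each), Sgcb by Hrc, Dnajc16 and Epm2a (0.98 each) and Sgcd by Cux2 (0.97), Rnf146 (0.96) and Emc2 (0.94). Sntb1 had no gene as close, with Hist1h4c at 0.88 and Zfp92 and Pcx at 0.85, and Dtna had Samd8 (0.99), 5730455P16Rik (0.98) and Ube2l3 (0.98).

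A further 10 genes of the complex (Sgce, Sgcz, Sntb2, Sntg1, Sntg2, Sspn, Dtnb, Nos1, Cav3, Lama2) were lower at 27 months in most of their calls. Of the 8 or 9 tested, the counts of higher and lower were 0 and 5 in male gastrocnemius, 0 and 3 in male tibialis anterior, 0 and 2 in male diaphragm, 0 and 0 in male soleus, 0 and 2 in female gastrocnemius and in female tibialis anterior, 1 and 2 in female soleus and 0 and 1 in female diaphragm. Of all genes tested, the shares called higher and lower were 10.6% and 12.6% in male gastrocnemius, 9.97% and 7.81% in male tibialis anterior, 5.13% and 3.52% in male diaphragm, 1.8% and 1.05% in male soleus, 14.6% and 14.6% in female gastrocnemius, 12.1% and 9.84% in female tibialis anterior, 10% and 8.74% in female soleus and 0.624% and 0.988% in female diaphragm. Lama2, the laminin chain to which dystroglycan binds, was lower in 5 of 8 comparisons, most in female (-0.69) and male (-0.76) diaphragm. Cav3, the caveolin of muscle fibres, was lower in gastrocnemius of both sexes (-0.18 and -0.27) and in female tibialis anterior (-0.24). Sgce was lower in male gastrocnemius (-0.33), diaphragm (-0.42) and tibialis anterior (-0.29). Sspn, which encodes sarcospan, was lower in tibialis anterior of both sexes (-0.24 and -0.33) and in male gastrocnemius (-0.14), but higher in female soleus (0.39). Between muscles, Nos1, the nitric oxide synthase held at the membrane by the complex, was lower in soleus than in tibialis anterior (-3.81 in females and -3.13 in males), whereas the syntrophin Sntb2 (0.75 and 0.56) and Sspn (0.55 and 0.38) were higher there.

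Of the genes that glycosylate dystroglycan, 18 of 22 listed were in the tables and 17 or 18 were tested. At most 4 were called higher and 3 lower, in female gastrocnemius, where 14.6% of all genes were called higher and 14.6% lower. Tmem5, which encodes a xylosyltransferase of this pathway, was lower in gastrocnemius of females (-0.39) and males (-0.34) and in tibialis anterior (-0.19 and -0.14). Soleus differed from tibialis anterior for B3galnt2 (-1.20 and -1.15), Ispd (0.98 and 0.82) and Pomk (-0.80 and -0.88).

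A further 32 genes that link fibre and matrix moved in both directions. In gastrocnemius, 14 rose and 2 fell in females and 9 rose and 8 fell in males, in soleus 15 and 7 in females and 1 and 3 in males, in tibialis anterior 3 and 8 in females and 8 and 5 in males, and in diaphragm 0 and 2 in females and 0 and 4 in males. Beside these counts, 14.6% of all genes were called higher and 14.6% lower in female gastrocnemius, and 10.6% and 12.6% in male. In soleus these shares were 10% and 8.74% in females and 1.8% and 1.05% in males. In tibialis anterior they were 12.1% and 9.84% in females and 9.97% and 7.81% in males. In diaphragm they were 0.624% and 0.988% in females and 5.13% and 3.52% in males. The keratin Krt18 rose in all 6 limb comparisons, by 4.15 to 6.34 on the log2 scale, and its partner Krt8 in 4. Col6a1 was lower in 7 of 8, at -0.86 in female soleus and -0.69 in male tibialis anterior. Tln1, one of a pair of talins, rose in 5 comparisons (0.40 in female gastrocnemius), while Tln2 fell in gastrocnemius (-0.40 and -0.26) and tibialis anterior (-0.37 and -0.18) and rose in female soleus (0.26). Flnc, a filamin of the Z-disc, and Dysf, which acts in membrane repair, rose in 4 comparisons each, by 0.68 and 0.18 in female gastrocnemius. Lama5 also rose in 4 comparisons, and Actn2, Des, Dmpk, Itga7 and Itgb1 in 3 each, among them Des (0.29), Itga7 (0.30) and Itgb1 (0.10) in female gastrocnemius. Col6a2 was lower in 5, and Col6a3, Capn3 and Lamc1 in 4 each, with Capn3 at -0.26 in female gastrocnemius. Soleus and tibialis anterior differed for Actn2 (1.72 and 1.74), Anxa1 (1.38 in females) and Synm (-1.93 and -2.09).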

How the data were processed

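RNA was extracted from 4 muscles and strand-specific total RNA libraries were made after removal of ribosomal RNA and sequenced as read pairs. The authors counted pairs per gene against mouse build mm10 with a gene model of their own. For the counting software, no version is given in the sources used here. Deposited values were the authors' raw counts per gene, 1 table per library. Of 25091 entries, 633 repeated a gene symbol and were left out (0.0335% of counts), which left 24458 symbols. No columns of other series were present.

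Groups were taken from the sample labels. Counts of 38583802 to 300089909 per library (median 72766895) were tested with edgeR 4.0.16 in R 4.3.3, with TMM factors, filterByExpr and the quasi-likelihood F-test, and adjusted by Benjamini-Hochberg over all genes tested, with a threshold of 0.05. Age and its linear trend were fitted per muscle and sex, muscles per sex, and sexes per muscle. Each p-value measures the spread between libraries. Levels are CPM with TMM factors over all 407 libraries, and levels per length use GENCODE M21 exon lengths. A library stood apart where its median correlation with the other libraries of its muscle and sex, over all ages, was under 0.93. Alternatives were DESeq2 1.42.0, limma-voom (limma 3.58.1), other size factors, no filter, Bonferroni adjustment, a replicate block and a term for the run of sample numbers. Removal of the libraries apart, a GC slope covariate and total-count scaling were added after seeing the data. The fits were tested on simulated data.

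The members and lists were chosen with earlier results of these data known. All 8 members are named, and of the other lists those genes called at 27 against 6 months in at least 3 of 8 muscle and sex combinations in 1 direction, up to 3 per list with the largest soleus against tibialis anterior difference, and the 3 genes most like each member. Some genes of the lists are not reported here and were left out of the list counts.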

Additional observations from a re-analysis of the deposited data

Results flagged for a closer look

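Of 128 combinations of group and member at 6 and 27 months (groups of 8 and 10 libraries; the other ages were not checked), 18 held a library whose gap to its nearest neighbour was large for the range of its group, where chance gives about 1 in 20. 10 of the 18 lay in libraries that stood apart. Replicate 2 of male diaphragm at 6 months gave 6 of them: Dmd was at 933 CPM with the nearest other library at 459, Dag1 at 60.5 (238), Sgca at 0.813 (38.2), Sgcd at 51.6 (40.6), Sntb1 at 0.341 (2.35) and Dtna at 71.0 (57.7). Replicate 0 of female diaphragm at 27 months had Dmd at 588 CPM (nearest 397), Dag1 at 60.3 (166) and Sgca at 1.62 (24.9). Replicate 2 of female diaphragm at 6 months had Dmd at 726 CPM (434).

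The other 8 lay in limb libraries that did not stand apart. Replicate 0 of female gastrocnemius at 27 months had Sgcb at 77.3 CPM (nearest 97.5) and Sgcd at 28.3 (45.2). In female soleus at 27 months, Dmd was at 660 CPM in replicate 0 (731) and Dag1 at 386 in replicate 5 (365). In female tibialis anterior at 6 months, Dmd was at 573 CPM in replicate 1 (647), Sgca at 81.7 in replicate 7 (92.6) and Sgcd at 47.8 in replicate 0 (57). Utrn was at 145 CPM in replicate 8 of male tibialis anterior at 27 months (126).

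The age change differed between muscles in 7 tests of the difference itself by edgeR. For Dmd, the log2 change in diaphragm was lower by 0.43 than in soleus and by 0.56 than in tibialis anterior in females, and by 0.77 than in gastrocnemius in males (differences of -0.43, -0.56 and -0.77). For Sntb1 in females, diaphragm minus gastrocnemius was 1.23 and gastrocnemius minus soleus -0.83. Dtna in female gastrocnemius minus soleus was -0.38, and Sgcd in female soleus minus tibialis anterior was 0.43.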

How the results depend on the processing

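Of 64 member changes at 27 against 6 months, Dmd in tibialis anterior and Sntb1 in gastrocnemius were called in both sexes under all 10 alternatives. Leaving out the libraries apart repeats the main fit for these muscles, which held none of them. Members called at 27 months went from 9 to 4 with Bonferroni adjustment, 15 with the GC slope and 19 with total counts, trends from 14 to 5 with Bonferroni and 25 with total counts, and calls past the 1.5-fold limit from 4 to 2 with Bonferroni, the adjustment used in the study, and 8 at the lower fold limit tried. Muscle by age went from 7 to 1 with Bonferroni and 14 with total counts, and sex by age from 0 to 1 with total counts. Calls of all genes moved with total counts as well. At 27 months in females these went from 2885 to 6504 in soleus and 4500 to 5755 in gastrocnemius. Female tibialis anterior went from 3204 to 3265 and diaphragm from 261 to 460. In males they went from 3542 to 3387 in gastrocnemius and 438 to 443 in soleus. Male tibialis anterior went from 2576 to 2275 and diaphragm from 1390 to 1093. Shares of all genes under Bonferroni adjustment and the GC slope are not given here. With total counts, Dag1 in female gastrocnemius became 0.09 (adjusted p = 0.0337) and Sgcb in female soleus -0.12 (adjusted p = 0.00284), opposite in sign to TMM. The cause was not tested.

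The replicate block gave 9 calls at 27 months, 14 trends, 3 past the fold limit, 88 between muscles, 6 for muscle by age, 20 between sexes and 0 for sex by age. The share of all genes called with this block is not given here, so these counts say nothing particular to the members. In the check of pairing, libraries of 1 number correlated above 0.1 in 316 of 904 pairs across ages, 313 of 572 across muscles and 65 of 194 across sexes, against 2102 of 7348, 1047 of 4436 and 410 of 1484 for libraries of other numbers. Across muscles the median r was 0.13 for the same and -0.02 for other numbers, a hint that some numbers are shared. Libraries of 1 mouse need not all correlate above 0.1, so this check cannot decide whether the numbers pair libraries. The main fits between muscles held no mouse term and treated the muscles as independent. Depth limits Sntb1, with a median count of 204.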
